A study of Mus musculus with 12 samples.

Results

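Fibronectin (Fn1) and 9 matricellular genes were followed in the nucleus pulposus, the hydrated centre of each intervertebral disc, of mice with and without Opa1. The other members were Ccn1, Ccn2, Ccn3, Ccn4, Ccn5, Tnc, Postn, Tgfbi and Sparc. They were chosen by symbol for what their proteins do, with earlier results of these data known. All 10 were found among the 32285 genes of the count table and passed the filter on low counts that left 15229 genes for testing. Opa1 encodes a GTPase that fuses the inner membranes of mitochondria and shapes their cristae. The series text asks how its loss alters the transcriptome of this tissue.

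Tail nucleus pulposus was micro-dissected from 6 WT and 6 Opa1cKO mice of the C57BL/6-129/SvEv strain, 1 mouse per library, all at 12 months of age. Deletion was induced at 3 months with AcanCre, a Cre recombinase driven from the aggrecan locus that is also active in other disc compartments and in cartilage. Tamoxifen at 100 mg/kg was injected on 3 days in a row in both genotypes, so WT mice carry that exposure too, and the mice were aged for 9 further months. Whether WT mice carry the Cre allele is not given in the labels. Whether that allele alters reads of Acan, the aggrecan gene, was not tested. The libraries are numbered WT 1 to 6 and Opa1cKO 1 to 6, as in the labels, and the number ties no WT mouse to an Opa1cKO mouse.

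Fibronectin is a secreted glycoprotein that cells bind through integrins, chiefly the alpha-5 integrin encoded by Itga5, and stretch into fibrils on which other matrix proteins are laid down. CCN proteins are secreted, modular proteins that bind integrins, heparan sulfate and growth factors without forming fibres themselves, which is what the word matricellular means. Ccn1 and Ccn2 are classic targets of the YAP and TEAD transcription machinery and of TGF-beta, and Ccn2 is known in the disc as a matrix-promoting factor of nucleus pulposus cells.

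The labels were checked first. Opa1 (chosen as the targeted gene) lay between 69.3 and 118 CPM (counts scaled to a common library size with TMM factors) in WT and between 30.2 and 47.7 in Opa1cKO, and the genotypes did not overlap (log2 fold change -1.22 with an SE of 0.116, edgeR adjusted p = 3.05e-05). The notochordal marker T, which encodes the transcription factor brachyury, was found at 2349 to 3187 CPM in the 12 libraries, and Acan, the cartilage proteoglycan that fills the nucleus pulposus, at 6192 to 16829. Krt19, a keratin of notochordal cells, was found at 1268 to 2707 CPM. Library totals were 45657321 to 53261644 counts in WT and 37268242 to 56618266 in Opa1cKO. Sex-linked transcripts contradicted the labelled sex in 4 libraries, WT 4, WT 5, WT 6 and Opa1cKO 4.

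Opa1cKO 6 stood apart from the other Opa1cKO libraries for these genes. It was the highest of the 12 libraries for 5 of the 10 members and the lowest for 1, whereas it was the highest for 16.7% of all genes tested. Its Acan level was 14344 CPM against 6192 to 9232 in the other Opa1cKO libraries, a level inside the WT range of 10500 to 16829. Its summed cartilage endplate and hypertrophic cartilage markers, 10 genes, were also the highest of the 12 at 144 CPM, against 51.5 to 144 over all Opa1cKO and 45.0 to 117 over WT libraries. In that list Ihh was at or near 0 throughout (mean 0.0429 CPM in WT and 0.0148 in Opa1cKO). The part of cartilage markers in the results on Opa1cKO 6 was not tested, and the fold change of each of the 10 members is given with and without this library.

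Of the 10 members, Fn1 and Ccn1 were higher in Opa1cKO and none was lower at an adjusted p below 0.05 (edgeR quasi-likelihood test with labelled sex as a covariate, Benjamini-Hochberg adjustment). Among all genes tested 10.2% were called, 5.1% higher and 5.13% lower. The log2 fold change (Opa1cKO over WT throughout) was positive for 7 members and negative for 3, with a median of 0.49 over the members and 0.01 over all genes. Without Opa1cKO 6 only Ccn1 was called, against 5.34% of all genes (2.11% higher), and the members' median was 0.15. DESeq2 and limma-voom also called no member lower. At an unadjusted p below 0.05 there were 5 members with all libraries, 4 higher and 1 lower (Ccn3), beside 25.2% of all genes. Without Opa1cKO 6 there were 3, Fn1 and Ccn1 higher and Tnc lower, beside 18.5% of all genes. In bulk tissue, fewer cells of a type and less RNA per cell cannot be told apart.

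**Figure D1:**
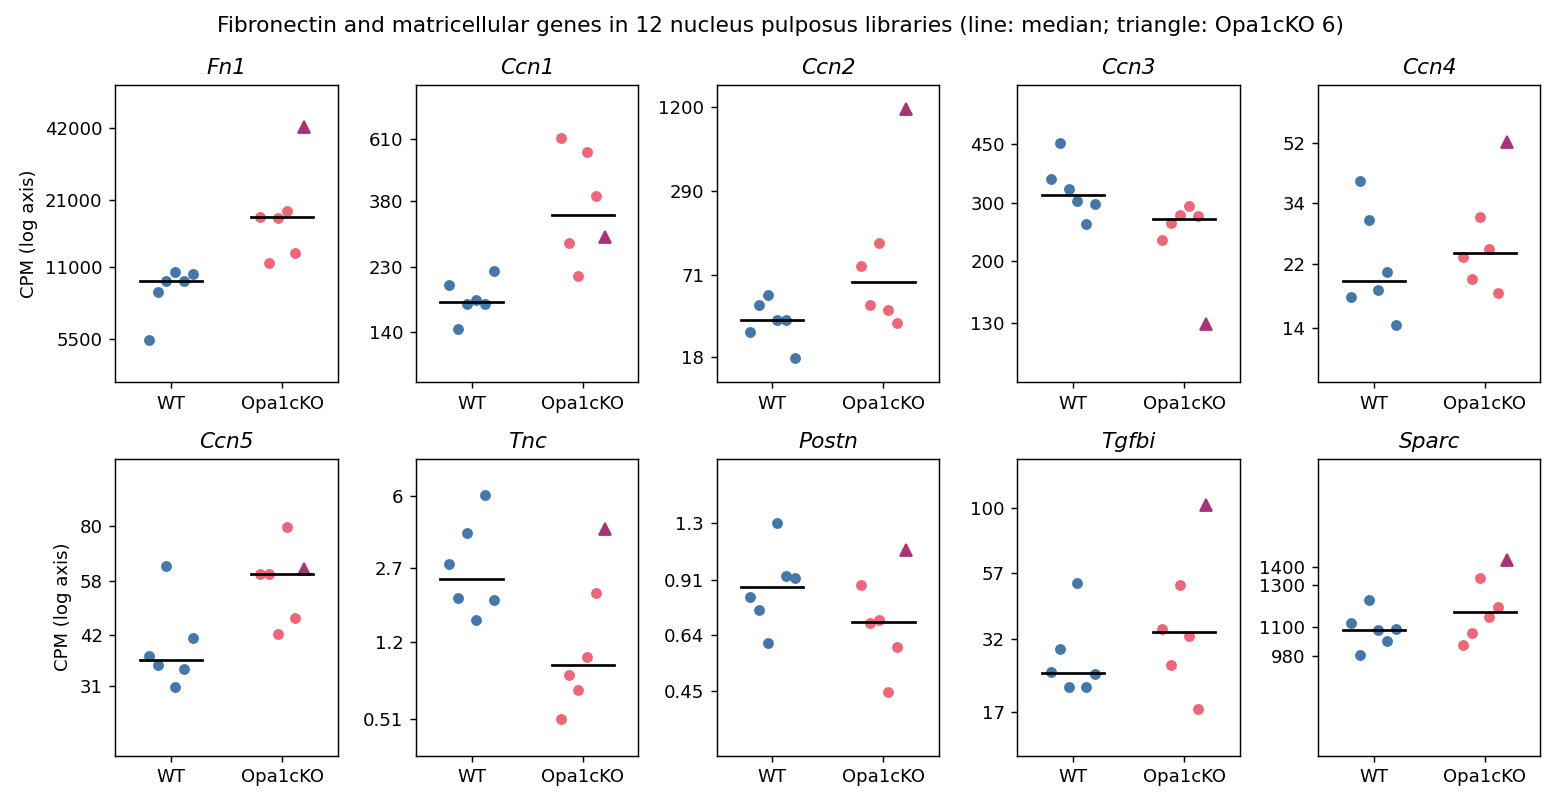
CPM of the 10 members in every library, on log axes that differ between panels. Points are libraries, lines are medians and the triangle is Opa1cKO 6. Only in the Fn1 panel do the genotypes not overlap, and the Ccn2 panel shows Opa1cKO 6 at 1160 CPM above 11 libraries of 17.6 to 121.

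Ccn1 was the only called member whose proximal promoter was among the RefSeq windows used here, and it is printed because it carries the core of the TEAD motif. The window holds the 250 bases before the transcription start at chr3:145649986-145650235 (GRCm38.p6, minus strand, written 5′ to 3′ along the gene). Capitals mark CATTCC, the core bound by TEAD factors, and CGTCA, a core of the cyclic AMP response element.
Ccn1 promoter: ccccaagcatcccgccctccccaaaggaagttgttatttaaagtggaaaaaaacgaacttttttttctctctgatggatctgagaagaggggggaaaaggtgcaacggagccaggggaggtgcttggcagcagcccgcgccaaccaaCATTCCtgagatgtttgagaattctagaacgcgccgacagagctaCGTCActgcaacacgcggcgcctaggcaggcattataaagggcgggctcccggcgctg
CATTCC lies 98 to 103 bases before the start and CGTCA 54 to 58 bases before it. On either strand, CATTCC was present in 12.6% of 32851 RefSeq promoter windows of this length and CGTCA in 17.8%, so neither is rare. The same searches, with TGANTCA for AP-1, GTCTAGAC for SMAD proteins and the serum response CArG box, found none of these letters in the windows of Tnc, Postn, Tgfbi and Sparc. A hypoxia response core, not in capitals here, was found as CACGC 43 to 47 bases before the Ccn1 start. In the Tgfbi window it was found as GCGTG, 86 to 90 bases before the start, and it was present in 38.6% of all windows. A match is a description of the letters and no binding was measured. Promoters of Fn1, Ccn2, Ccn3, Ccn4 and Ccn5 are not analysed here.

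Fn1 (ENSMUSG00000026193, chr1:71585520-71653200, minus strand, mm10) was the most abundant member and among the most abundant transcripts of the tissue. WT libraries had 5475, 8624, 9655, 10474, 9615 and 10309 CPM, with a median of 9635. Opa1cKO libraries 1 to 6 had 17786, 11481, 17665, 18920, 12601 and 42200 CPM, with a median of 17726. Every Opa1cKO library lay above every WT library, and the lowest, Opa1cKO 2, stood only just above WT 4. The ranges of 6.41% of all genes tested did not overlap, 2.77% with Opa1cKO higher. The log2 fold change was 1.20 (SE of 0.291, edgeR adjusted p = 0.0202).

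The size of the Fn1 difference depended on Opa1cKO 6, whose level was 2.69 times the mean of the other Opa1cKO libraries. Without it the log2 fold change was 0.66 (SE of 0.194, edgeR adjusted p = 0.0652), a fold of 1.58 in place of 2.30, and the remaining 11 libraries still did not overlap by genotype, as was so for 7.44% of all genes. Without the 4 libraries whose sex label is contradicted it was 1.79 (edgeR adjusted p = 0.0867). With labelled sex in the model, that fold rested on WT 1 to 3 against Opa1cKO 5 and 6. The separation of the genotypes held in every library, while the call at the adjusted threshold did not hold without Opa1cKO 6.

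Reads of Fn1 took 0.542 to 1.08% of all counts in WT and 1.19 to 4.15% in Opa1cKO. By read count it ranked between 4 and 11 among all genes in WT and between 1 and 4 in Opa1cKO, and it ranked 1 in Opa1cKO 6. Its gene body overlaps Apol7d on the opposite strand, which held 114 to 231 counts per library against 288762 or more for Fn1.

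**Figure D2:**
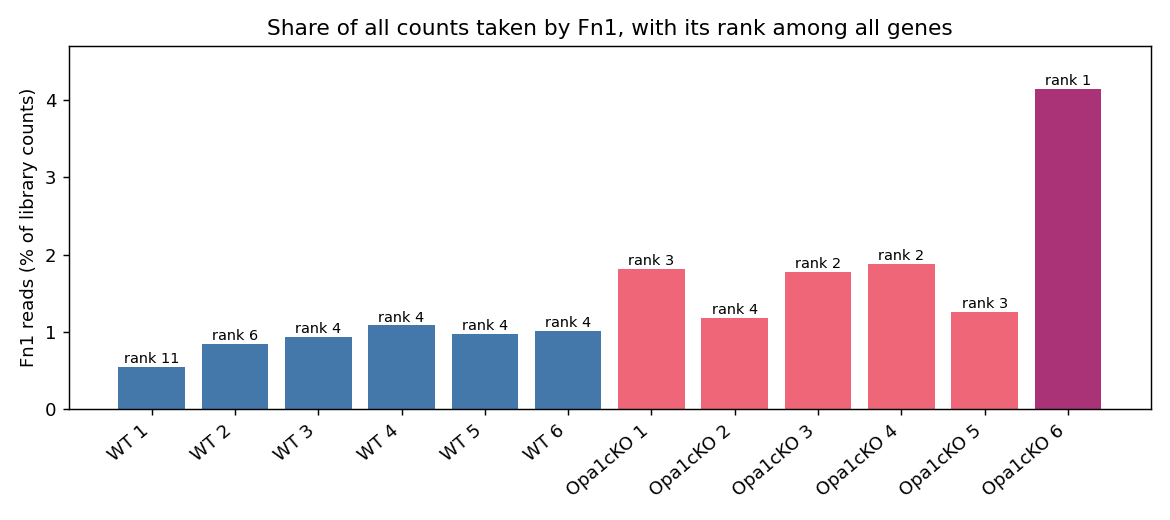
Percent of each library's counts that fell on Fn1, as bars from 0, with the rank of Fn1 by read count among all genes written above each bar. WT bars reach at most 1.08% and Opa1cKO bars start at 1.19%, with Opa1cKO 6 at 4.15%.

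Ccn1 (also CYR61, ENSMUSG00000028195, chr3:145646976-145649981, minus strand), a secreted ligand of several integrins that supports adhesion and migration, was higher in Opa1cKO. In WT libraries it lay between 144 and 222 CPM with a median of 177. Opa1cKO libraries 1 to 6 had 612, 277, 214, 551, 395 and 290 CPM, with a median of 342. Opa1cKO 3 lay inside the WT range, and the other 5 libraries lay above all WT libraries. The log2 fold change was 1.02 (SE of 0.246, edgeR adjusted p = 0.0205).

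Ccn1 did not depend on Opa1cKO 6, which had less Ccn1 than the mean of the other Opa1cKO libraries (0.706 times). Without it the log2 fold change was 1.11 (SE of 0.279, edgeR adjusted p = 0.0446). The call was lost without WT 5 (0.94, edgeR adjusted p = 0.0648) and without Opa1cKO 5 (0.94, edgeR adjusted p = 0.0558), with little change in size. It was also lost without the 4 libraries of contradicted sex (0.99, edgeR adjusted p = 0.218). That last fold rested on WT 1 to 3 against Opa1cKO 5 and 6.

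Ccn2 (also CTGF, ENSMUSG00000019997, chr10:24595442-24598683, plus strand), a cofactor of TGF-beta that promotes matrix synthesis, had the widest spread of the members. WT libraries had 27.1, 42.7, 51.0, 33.4, 33.6 and 17.6 CPM, with a median of 33.5. Opa1cKO libraries 1 to 6 had 82.9, 43.1, 121, 39.4, 31.5 and 1160 CPM, with a median of 63.0. Libraries 1, 3 and 6 of Opa1cKO lay above the WT range and the other 3 lay within it, so the genotypes overlapped.

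The fitted log2 fold change of Ccn2 was 2.73 (SE 0.779) and missed the threshold (edgeR adjusted p = 0.0512). Opa1cKO 6, with 49543 reads of Ccn2, had 18.2 times the mean of the other Opa1cKO libraries. Without it the log2 fold change was 0.89 (SE of 0.528, edgeR adjusted p = 0.422). Ccn2 passed the threshold in 5 of 28 alternative settings, all of which include Opa1cKO 6, among them DESeq2 (2.71, adjusted p = 0.00545). The gene overlaps Gm15270 on the opposite strand, which held 0 to 33 counts.

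Among the remaining CCN genes none was called. Ccn3 (also NOV, ENSMUSG00000037362, chr15:54745702-54754039), a family member that often opposes Ccn2 in cartilage-type cells, had 258 to 453 CPM in WT with a median of 316. In Opa1cKO it had 129 to 293 CPM with a median of 267. The log2 fold change was -0.45 (SE of 0.207, edgeR adjusted p = 0.192), and without Opa1cKO 6 it was -0.19 (edgeR adjusted p = 0.495). Opa1cKO 6 was the lowest of all libraries for Ccn3 and the highest for Ccn2. The other 5 Opa1cKO libraries held 231 to 293 CPM of Ccn3, overlapping the lower part of the WT range.

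Ccn5 (also WISP2, ENSMUSG00000027656, chr2:163820861-163833146), which lacks the C-terminal module of the other family members, had 30.8 to 63.1 CPM in WT with a median of 36.2. In Opa1cKO it had 42.2 to 79.7 CPM with a median of 60.3, and all 6 libraries lay above the WT median. WT 3 alone, at 63.1 CPM, reached into the upper Opa1cKO values. The log2 fold change was 0.53 (SE of 0.202, edgeR adjusted p = 0.114), and without WT 3 it was 0.67 (edgeR adjusted p = 0.0155). Without Opa1cKO 6 it was 0.49 (edgeR adjusted p = 0.306).

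Ccn4 (also WISP1, ENSMUSG00000005124, chr15:66891320-66923201), a WNT-induced member of the family, had 14.4 to 39.7 CPM in WT with a median of 19.5. In Opa1cKO it had 17.9 to 52.2 CPM with a median of 23.9, the highest again in Opa1cKO 6. Its log2 fold change of 0.45 (SE of 0.283, edgeR adjusted p = 0.351) became 0.12 without that library (edgeR adjusted p = 0.886). Of the 5 CCN genes, 1 was called, and Opa1cKO 6 was the highest library for Ccn2 and Ccn4, the lowest for Ccn3 and neither for Ccn1 and Ccn5.

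**Figure D3:**
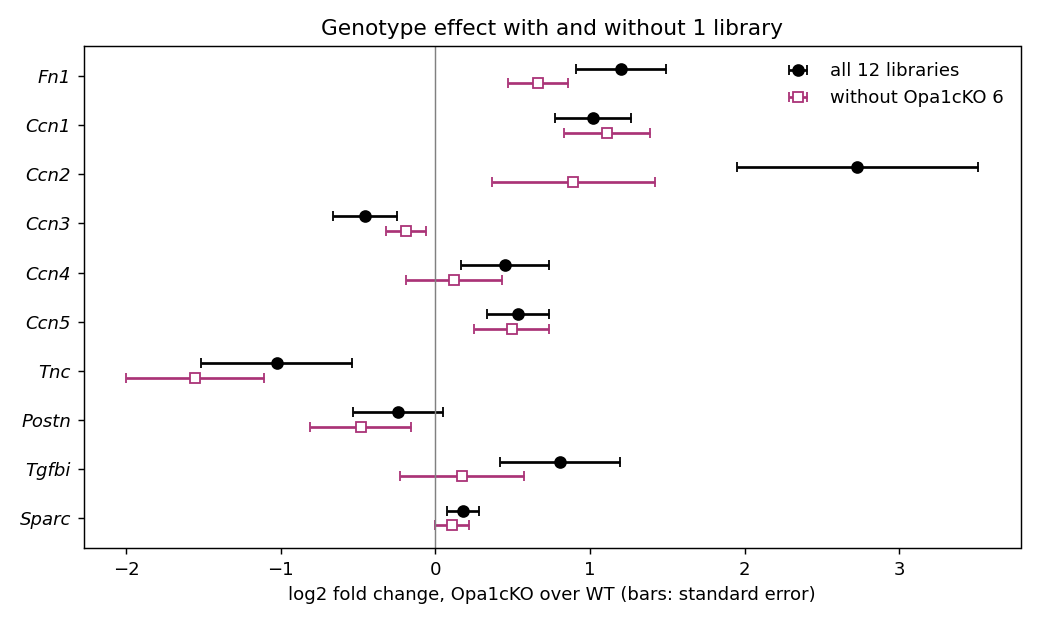
Log2 fold change of Opa1cKO over WT for the 10 members, with bars for the standard error, from all 12 libraries (filled) and without Opa1cKO 6 (open). The Ccn1 value stays near 1, the Fn1 value falls from 1.20 to 0.66 and the Ccn2 value falls from 2.73 to 0.89.

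Tnc (tenascin-C, ENSMUSG00000028364, chr4:63959785-64047015), a hexameric protein that weakens adhesion to fibronectin, was scarce. WT libraries had 2.83, 1.95, 3.97, 1.53, 6.05 and 1.90 CPM, with a median of 2.39. Opa1cKO libraries 1 to 6 had 0.510, 0.831, 0.703, 1.01, 2.04 and 4.17 CPM, with a median of 0.922. Libraries 1 to 4 of Opa1cKO lay below every WT library, while Opa1cKO 5 and 6 lay within the WT range.

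The log2 fold change of Tnc was -1.03 (SE of 0.490, edgeR adjusted p = 0.213), and without Opa1cKO 6 it was -1.55 (SE 0.444, edgeR adjusted p = 0.0638). The Opa1cKO libraries 1 to 4 are those labelled male, and the value differed by labelled sex. Among labelled males alone it was -2.37 (edgeR adjusted p = 0.0324) and among labelled females alone 0.28 (edgeR adjusted p = 0.776), a difference that was not tested. By their sex-linked transcripts WT 5, WT 6 and Opa1cKO 4, all labelled male, read as female, and WT 4 read as male. With these 4 libraries left out the log2 fold change was 0.0909 (edgeR adjusted p = 0.927). That value rested on WT 1 to 3 against Opa1cKO 5 and 6. With sex taken from the reads it was -0.66 (edgeR adjusted p = 0.285). The value was negative in 26 of the 28 alternatives but was not called with all libraries, so no direction is given for Tnc.

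Postn (periostin, ENSMUSG00000027750, chr3:54361109-54391037) and Tgfbi (ENSMUSG00000035493, chr13:56609523-56639562) encode related proteins with fasciclin domains that bind integrins and collagen. Postn was the scarcest member, at 0.608 to 1.304 CPM in WT and 0.447 to 1.10 in Opa1cKO (log2 fold change -0.24, edgeR adjusted p = 0.658, and -0.48 without Opa1cKO 6, edgeR adjusted p = 0.483). Tgfbi, named for its induction by TGF-beta, had 21.1 to 52.4 CPM in WT with a median of 23.9 and 17.5 to 103 CPM in Opa1cKO with a median of 34.1. Opa1cKO 6 was the highest and Opa1cKO 5 the lowest of the 12 libraries. Its log2 fold change was 0.81 (SE of 0.389, edgeR adjusted p = 0.223), 0.17 without Opa1cKO 6 (edgeR adjusted p = 0.877) and 1.09 without Opa1cKO 5 (edgeR adjusted p = 0.0314).

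Sparc (osteonectin, ENSMUSG00000018593, chr11:55394500-55423183), a calcium-binding protein that attaches to collagen, was the most even member. It had 984 to 1225 CPM in WT with a median of 1087 and 1024 to 1439 CPM in Opa1cKO with a median of 1167. The groups overlapped, and the log2 fold change was 0.18 (SE of 0.103, edgeR adjusted p = 0.295) and 0.11 without Opa1cKO 6 (edgeR adjusted p = 0.661).

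Levels were compared between genes on the deposited TPM scale, which divides by transcript length. In WT the mean was 3540 ± 824 TPM for Fn1, 1310 ± 104 for Sparc, 526 ± 101 for Ccn3 and 410 ± 56.9 for Ccn1 (SD, n = 6). Ccn5 followed at 95.2 ± 27.2 TPM, Ccn2 at 54.6 ± 18.9, Tgfbi at 34.9 ± 16.2, Ccn4 at 19.2 ± 7.85, Tnc at 1.78 ± 1.03 and Postn at 0.468 ± 0.142. The WT ranges of the neighbours Ccn3 and Ccn1, Ccn5 and Ccn2, Ccn2 and Tgfbi, and Tgfbi and Ccn4 overlapped, so their order is not separated by the spread over mice.

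The order of Ccn3 and Ccn1 differed between the genotypes. Ccn3 exceeded Ccn1 in 5 of 6 WT libraries and in 0 of 6 Opa1cKO libraries. In Opa1cKO, Ccn1 had 890 ± 363 TPM and Ccn3 390 ± 88.9 (SD, n = 6), and without Opa1cKO 6 they had 929 ± 391 and 424 ± 31.7 (SD, n = 5). Ccn2 lay below Ccn5 in 6 of 6 WT libraries and in 4 of 6 Opa1cKO libraries, the others being Opa1cKO 3 and 6. The Opa1cKO mean of Ccn2, 411 ± 760 TPM (SD, n = 6), stood above those of Ccn5 (141 ± 32.8) and Ccn3. Without Opa1cKO 6 it was 101 ± 58.6, below the 138 ± 35.7 of Ccn5 (SD, n = 5). The 10 genes thus spanned from Fn1, a leading transcript, to Tnc and Postn, at a few TPM or less in both genotypes.

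**Figure D4:**
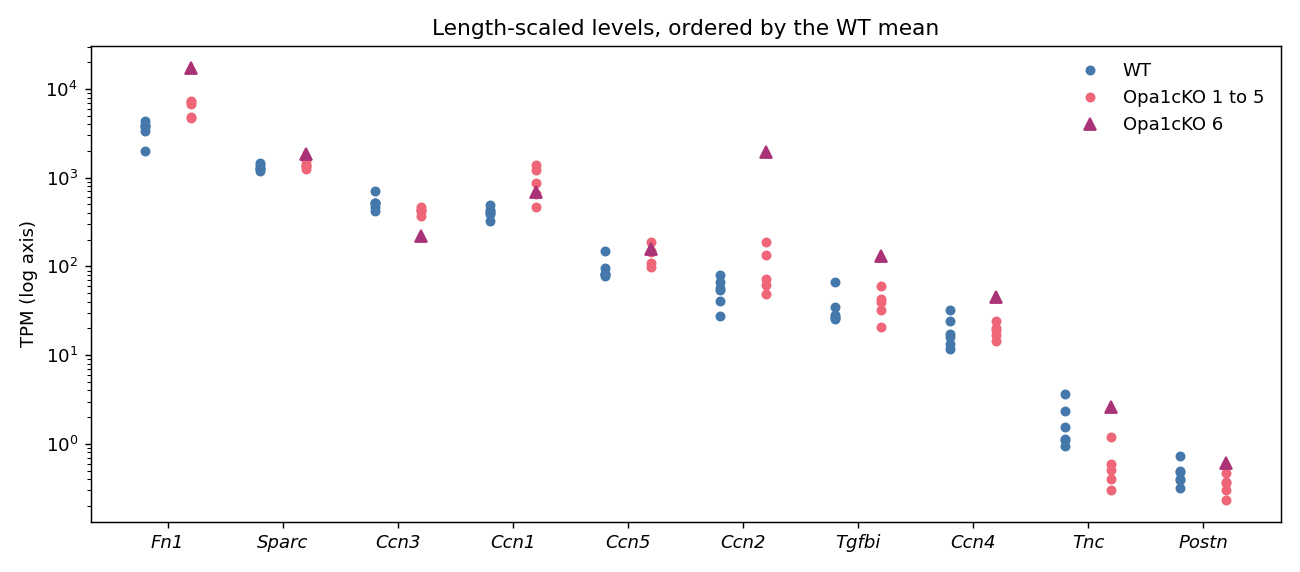
TPM of the 10 members in each library on a log axis, ordered by the WT mean. Blue points are WT, red points Opa1cKO 1 to 5 and triangles Opa1cKO 6, and the order runs from Fn1 at a WT mean of 3540 TPM to Postn at 0.468.

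The machinery that fibronectin needs was read from 19 tested genes for its receptors and fibril assembly. Of these, 5 rose and 1 fell, with a median log2 fold change of 0.07 beside 0.01 over all genes. Over all genes tested, for this and the lists below, 5.1% were called higher and 5.13% lower. Without Opa1cKO 6 these shares were 2.11% and 3.23%. Itga5, the fibronectin receptor subunit, rose in every Opa1cKO library above every WT library, from 207 to 298 CPM in WT to 345 to 584 CPM in Opa1cKO (log2 fold change 0.83 with an SE of 0.140, edgeR adjusted p = 0.00245). It remained called without Opa1cKO 6 (0.65, edgeR adjusted p = 0.0116). Tns3, an adaptor of the tensin family that links integrins to actin, fell without overlap (log2 fold change -0.58 with an SE of 0.0849, edgeR adjusted p = 0.000937), from 567 to 726 CPM in WT to 379 to 455 CPM in Opa1cKO. Without Opa1cKO 6 it had -0.61 (edgeR adjusted p = 0.00222).

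The other 4 rises lost their call without Opa1cKO 6. Sdc1, a heparan sulfate proteoglycan that binds fibronectin, had 2.39 on the log2 scale (edgeR adjusted p = 0.0107), and 1.53 without that library (edgeR adjusted p = 0.167). Named to complete the count, after their values were seen, were Tgm2, the crosslinking transglutaminase, at 1.76 and 1.10, Itga9, a tenascin receptor subunit, at 2.17 and 1.33, and Cd44, the hyaluronan receptor, at 1.33 and 0.79. Each pair gives the log2 fold change with all libraries and without Opa1cKO 6. Without that library, 1 gene of the list was higher and 1 lower, with a median of -0.02.

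Among 17 further matricellular genes tested, 3 rose and 1 fell, with a median log2 fold change of 0.20, and the same counts were found without Opa1cKO 6. Fstl1, a secreted glycoprotein that binds BMP ligands and belongs to the SPARC family, rose from 19.4 to 23.9 CPM to 33.6 to 54.4 CPM (log2 fold change 1.11 with an SE of 0.122, edgeR adjusted p = 0.000117). Fbln7, a short fibulin, had 1.60 on the log2 scale (edgeR adjusted p = 0.00331). Neither gene overlapped between genotypes, and each was called without Opa1cKO 6 (log2 fold change 1.07 and 1.39).

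Galectin-1, encoded by Lgals1, a lectin that binds fibronectin and integrin sugars, fell from 140 to 236 CPM in WT to 67.3 to 125 CPM in Opa1cKO (log2 fold change -1.02 with an SE of 0.180, edgeR adjusted p = 0.00365). Without Opa1cKO 6 its value was -0.99 (edgeR adjusted p = 0.0186). The remaining rise was Ecm1, named to complete the count after its value was seen, at 0.44 with all libraries and 0.46 without Opa1cKO 6.

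The signalling inputs of Fn1 and the CCN genes were read from 4 lists. Of 20 tested YAP and TEAD target genes, 6 rose and 1 fell, with a median log2 fold change of 0.48. Over all genes 5.1% were called higher and 5.13% lower. Without Opa1cKO 6, 1 gene of the list was higher and 0 were lower, with a median of 0.33, beside 2.11% and 3.23% of all genes. That gene was Tgfb2, a TGF-beta ligand, which rose without overlap from 144 to 178 CPM in WT to 236 to 310 CPM in Opa1cKO (log2 fold change 0.80 with an SE of 0.0955, edgeR adjusted p = 0.000212). Myof, a membrane repair protein, had 0.48 (edgeR adjusted p = 0.0114), and Crim1, a transmembrane antagonist of BMPs, had -0.41 (edgeR adjusted p = 0.0141). Of 16 Hippo pathway components, 2 rose and 1 fell with a median of 0.03, and none was called without Opa1cKO 6 (median -0.02). They were Tead4, a DNA-binding partner of YAP, at 0.78 (edgeR adjusted p = 0.00977), Mob1a, a kinase activator, at 0.33 (edgeR adjusted p = 0.0314), and Vgll4, a competitor of YAP, at -0.38 (edgeR adjusted p = 0.0362).

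Of 17 TGF-beta ligands, receptors and induced genes, 4 rose and 1 fell, with a median log2 fold change of 0.15 (0.02 without Opa1cKO 6). Tgfb2 stands in this list too, and it was the only call of the list without Opa1cKO 6. Tgif1, a repressor of SMAD-driven transcription, had 0.67 (adjusted p = 0.0149 by edgeR) and 0.49 without that library (edgeR adjusted p = 0.0847). Tgfb1, another ligand, had 0.82 (edgeR adjusted p = 0.0179) and 0.53 without that library (edgeR adjusted p = 0.128). Smad7, an inhibitor of TGF-beta receptors named to complete the count, had 0.75 (edgeR adjusted p = 0.0417) and 0.35 (edgeR adjusted p = 0.180). The ligand that fell, named to complete the count after its value was seen, was Tgfb3, at -0.46 (edgeR adjusted p = 0.0212) and -0.33 without Opa1cKO 6 (edgeR adjusted p = 0.0585). Of 12 SRF and MRTF target genes, 1 rose and 1 fell with a median of 0.07. They were Actn1, an actin crosslinker, at 0.67 (edgeR adjusted p = 0.0257), and Tpm2, a tropomyosin, at -0.39 (edgeR adjusted p = 0.032). Without Opa1cKO 6 neither was called (0.46 and -0.35, edgeR adjusted p = 0.109 and 0.114). The list then had 1 higher and 0 lower with a median of 0.13, the higher being Tpm1, another tropomyosin, named after its value was seen (0.48, edgeR adjusted p = 0.0409, against 0.31 and 0.228 with all libraries).

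Of 18 fibrillar matrix partners of fibronectin, 2 rose and 0 fell, with a median log2 fold change of 0.33. Col12a1, a collagen that sits on the surface of fibrils, rose from 5.80 to 12.4 CPM in WT to 13.7 to 30.9 CPM in Opa1cKO without overlap (log2 fold change 1.28 with an SE of 0.218, edgeR adjusted p = 0.00295), and it had 1.07 without Opa1cKO 6 (edgeR adjusted p = 0.0178). Col6a1, a chain of the pericellular collagen network, had 0.96 (edgeR adjusted p = 0.0388) and 0.39 without that library (edgeR adjusted p = 0.196). Without Opa1cKO 6 the list had 1 higher and 1 lower, with a median of 0.12. The lower was Loxl2, a collagen crosslinking enzyme, named after its value was seen (-0.97, edgeR adjusted p = 0.0473, against -0.74 and 0.0585 with all libraries).

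**Figure D5:**
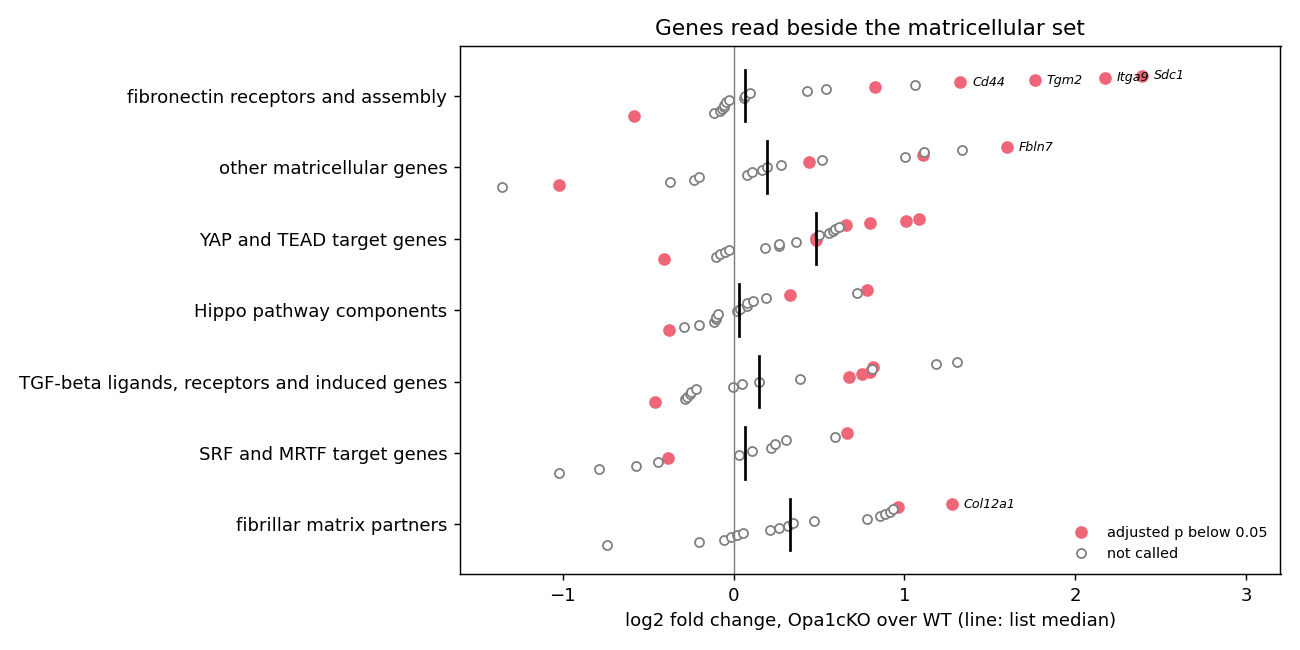
Log2 fold change of Opa1cKO over WT for every tested gene of the 7 lists read beside the members, with filled points for an adjusted p below 0.05 and a line at each list median. The called genes with the largest changes are named, and the list medians run from 0.03 to 0.48.

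The genes most like Fn1 or Ccn2 within the genotypes were picked as the highest among all genes tested. High values therefore follow from the choice, and those without Opa1cKO 6 reuse the remaining libraries. Likeness was Pearson's r of log2 CPM, taken as deviations from each genotype's mean over 12 libraries that share their depth and composition. For Fn1 the most alike were Aldh1a3 (r = 0.975), Col9a1 (0.956), Pla2r1 (0.952), Ttc39a (0.931) and Myo5a (0.928), and without Opa1cKO 6 they had 0.932, 0.909, 0.866, 0.809 and 0.797. For Ccn2 they were Dlg1 (0.972), Gpr180 (0.966), Itgav (0.964), Hapln1 (0.962) and Dok1 (0.956), with 0.851, 0.901, 0.925, 0.915 and 0.770 without it. Aldh1a3 was scarce, with a mean of 0.683 CPM in WT and 2.25 CPM in Opa1cKO 6. Itgav encodes the alpha-v integrin subunit, a receptor of fibronectin and of CCN proteins, and Hapln1 the link protein that ties aggrecan to hyaluronan.

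Among the members themselves, likeness to Fn1 was mostly a matter of Opa1cKO 6. The r of Fn1 with Ccn2 was 0.794 over 12 libraries and 0.317 over the 11 without Opa1cKO 6, and with Tgfbi it was 0.763 and 0.472. Ccn2 and Ccn4 kept a value of 0.744 without that library (0.818 with it). Ccn1, the member called with and without Opa1cKO 6, had -0.0854 with Fn1 and -0.406 with Ccn2 over the 12 libraries.

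Other cell types were read from marker lists. The summed nucleus pulposus markers lay between 20346 and 28734 CPM in WT and between 16992 and 22324 in Opa1cKO (exact permutation p = 0.0108, 0.108 after adjustment over 10 lists), and of 10 tested genes only Cdh2, an adhesion cadherin, was called, lower. Opa1cKO 6 held the highest of these Opa1cKO sums, and the other 5 reached at most 19862 CPM, below every WT library. Acan gave the largest part of the sum (mean 13062 CPM in WT and 8628 in Opa1cKO). T and Krt19 had log2 fold changes of 0.06 and -0.04 (edgeR adjusted p = 0.781 and 0.941). Without Opa1cKO 6, Cdh2 and Acan were both lower (Acan -0.84, edgeR adjusted p = 0.00862, against -0.53 and 0.103 with all libraries). Annulus and tendon markers summed to 1311 to 1942 CPM in WT and 1567 to 2639 in Opa1cKO (exact permutation p = 0.0801, adjusted 0.267), mostly from Fmod (mean 1405 and 1628 CPM), with Kera at 0 in every library. Macrophage markers summed to 103 to 196 CPM in WT and 96.4 to 117 in Opa1cKO (exact permutation p = 0.0325, adjusted 0.162), with Adgre1 and Ptprc near 0. Of the 4 macrophage genes tested, Cd68 was called higher and Csf1r and Cd163 lower. Keratinocyte markers summed to 1380 to 1746 CPM in WT and 1236 to 1676 in Opa1cKO, nearly all from Dsp with Krt5 and Krt14 at or near 0, and nerve markers to 273 to 313 and 278 to 352, mostly Pmp22. Endothelial, bone, red cell and skeletal muscle sums reached at most 2.94, 4.36, 2.41 and 14.7 CPM. The part of any of these cell types in the Fn1 and CCN values was not tested.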

How the data were processed

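Total RNA of 12 libraries was sequenced from ribosomal RNA-depleted, stranded libraries made from 50 ng of RNA with 14 PCR cycles, per the labels' protocols. The authors deposited whole-number read counts for 32285 genes, from reads aligned with STAR 2.7.11b to mm10 per the submitters' processing notes. The sources used here do not say how reads were assigned to genes, or whether by strand. The authors also deposited TPM values, used here for levels between genes and as an alternative unit with pseudocounts of 1 and 0.1.

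Counts were tested with edgeR 4.0.16 in R 4.3.3: TMM factors, filterByExpr with a minimum count of 10, and a robust quasi-likelihood model with terms for labelled sex and genotype in all 12 libraries. Labelled sex was unbalanced between genotypes. P-values were adjusted by the Benjamini-Hochberg method over 15229 genes, a gene being called below 0.05. SE is the log2 fold change divided by the root of F. Single sums per library were compared by exact permutation (two-sided), which can reach 0.00216 at the lowest with 6 mice a side. The 28 alternatives included DESeq2 1.42.0, limma 3.58.1, other scalings and filters, the labelled sexes taken separately and every library left out in turn.

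The members, the 7 function lists and the 10 marker lists were chosen with earlier results of these data known. The text names the members, Opa1, T, Krt19 and Acan, up to 3 called genes with the smallest p per function list, the most abundant gene per marker list and the 5 genes most like Fn1 and Ccn2. Marker genes are given through their sums. A gene of the function lists is not reported here and is left out of their counts. Gene positions come from GENCODE M21 (32235 of 32285 identifiers matched) and promoter windows from RefSeq on GRCm38.p6, with entries for 5 of the 10 members. The edgeR, DESeq2 and limma-voom fits were also run on simulated counts with 200 of 15229 genes changed. These counts held no sex effect and no library set apart, so the rates are not those of the calls reported here. Of 1.5-fold, 2-fold and 4-fold changes edgeR recovered 28.4, 52.2 and 87.5%, with 2.63% of its calls false. DESeq2 recovered 41.8, 68.1 and 93.8% with 18.7% false, and limma-voom 26.9, 55.1 and 85.9% with 4.31% false. Reads include PCR copies, so counting precision is not stated beyond the replicate spread.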

Additional observations from a re-analysis of the deposited data

Results flagged for a closer look

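Within each genotype of 6 libraries, the highest or lowest library was compared with its nearest neighbour by Dixon's ratio. Of 104 groups examined, 27 held such a library, and in 18 of them it was Opa1cKO 6. Of these groups, 20 belong to the 10 genes chosen as most like Fn1 or Ccn2, whose pattern is itself led by Opa1cKO 6, and they held 8 such libraries, 7 of them Opa1cKO 6. The other 84 groups held 19, of which 11 were Opa1cKO 6. The cut passes about 1 in 20 groups of normally distributed values. These were unlogged CPM, many of genes chosen or named with results known, so that rate is no reference for them. Groups share libraries and are not independent.

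Opa1cKO 6 stood apart from the other Opa1cKO libraries for 4 members, at 42200 CPM for Fn1, 1160 for Ccn2, 129 for Ccn3 and 52.2 for Ccn4. Ccn3 and Ccn4 only just passed the cut (ratios of 0.6253 and 0.6251). It also stood apart among genes of the lists, at 14344 CPM for Acan, 3213 for Col6a1, 842 for Myof, 180 for Actn1, 148 for Crim1 (the lowest), 49.0 for Sdc1 and 13.2 for Tead4. Among the genes most like Fn1 it had 438 CPM for Myo5a, 35.6 for Pla2r1, 11.02 for Col9a1, 6.23 for Ttc39a and 2.25 for Aldh1a3. Among those most like Ccn2 it had 390 for Dlg1 and 43.8 for Dok1.

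WT libraries stood apart in single genes. Fn1 was low in WT 1 at 5475 CPM, Ccn5 was high in WT 3 at 63.1, and Tgfbi was high in WT 4 at 52.4. Myof was high in WT 2 at 591, and Gpr180 was low in WT 6 at 19.8. Marker sums stood apart for skeletal muscle in WT 5 at 13.8 CPM and in Opa1cKO 4 at 14.7, for bone in WT 5 at 4.36 and for red blood cells in WT 2 at 2.41.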

How the results depend on the processing

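Most of the 28 alternatives kept the log2 fold changes of the members, and 8 members kept their sign in all of them. Tnc turned to 0.0909 without the 4 libraries of contradicted sex and to 0.28 in labelled females alone, and Postn to 0.22 without those 4 libraries. Folds without those 4 libraries rest on WT 1 to 3 against Opa1cKO 5 and 6, since the WT left were all labelled female. The number of members called higher (2) was 0 without the libraries of contradicted sex and in labelled males alone. It was 1 without a low-count filter (Fn1) and in labelled females alone (Ccn1), and 1 to 3 over single libraries left out. With sex taken from Xist and Y-linked reads it was 3 (Fn1, Ccn1 and Ccn5), as with limma-voom with quality weights. DESeq2, RLE size factors and a stricter low-count filter also gave 3 (Fn1, Ccn1 and Ccn2). The number called lower (0) was 1 in labelled males alone (Tnc). Over all genes, 777 higher and 781 lower calls became 188 and 137 without the libraries of contradicted sex, 167 and 133 in labelled females and 161 and 258 in labelled males, where fewer libraries were tested. DESeq2 called 1189 higher. With single libraries left out there were 323 to 1002 higher and 496 to 1008 lower calls, with 323 and 496 without Opa1cKO 6 and 463 and 510 without WT 6.

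With the replicate number as a block, 1 member (Ccn1) was called higher, with 351 higher and 418 lower calls over all genes, and Fn1 had 1.08 (edgeR adjusted p = 0.0525). Same-numbered libraries did not deviate together (r from -0.217 to 0.0430), so the numbers do not pair the mice. Fn1 was called in 23 of the 28 alternatives (adjusted p from 0.00747 to 0.121), Ccn1 in 23 (0.000293 to 0.327), Ccn2 in 5 (0.00545 to 0.422), Ccn5 in 3, Tnc in 1 and Tgfbi in 1. Depth did not limit Fn1, Ccn1 or Ccn2, each with 843 reads or more per library, and limited Tnc and Postn most.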
